A study of Homo sapiens with 27 samples.

Results

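Oxidative phosphorylation (OXPHOS) is carried out by protein complexes of the inner mitochondrial membrane whose subunits come from both genomes, and 59 of these genes were followed here: the 13 protein-coding genes of mitochondrial DNA, and 46 nuclear genes for subunits of complexes I to V and for cytochrome c. A transcript belonged to the set when its identifier, without the version, carried one of the 59 gene symbols in GENCODE 44, and all transcripts of a gene were summed. All 59 genes were counted, 59 of 18776 genes in all, through 342 of 93530 counted transcripts, of which 86362 had a gene in GENCODE 44. The 13 mitochondrial genes have 1 transcript each, and the 46 nuclear genes contributed 329.

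The libraries came from RM82, an established Ewing sarcoma cell line, kept for 24 h either with SGC-CLK-1, an inhibitor of the CDC-like kinases that phosphorylate splicing factors, or with the solvent DMSO alone as the negative control. Each group held 3 libraries of cDNA read on the nanopore (ONT) platform, numbered 1 to 3 in the labels. The study's reporting summary says in general terms that its experiments were repeated independently, but the labels do not tie these libraries to separate cultures, and each p-value measures only the spread between them. One line stands for the tumour type here, and the concentration of SGC-CLK-1 is not given in the sources used here. Library totals were 666702, 362826 and 373004 counts for SGC-CLK-1 and 416352, 523456 and 372876 for DMSO, and each library was counted as a sample of its own. Between 2 libraries of a group, the chi-square of the gene sums was 2.80 to 4.97 times its degrees of freedom. On the most abundant transcript of each gene, which limits molecules counted on several transcripts, that ratio was 1.35 to 2.71. Of 17 Ewing sarcoma markers, 16 were counted and NKX2-2 was at 0 in all 6 libraries. In CPM (counts on a gene scaled to the same total in every library), the summed level of the 16 was 3655, 3650 and 4391 in the SGC-CLK-1 libraries and 4237, 3916 and 4684 in the DMSO libraries, with STEAP2 the most abundant. Of the 10 markers with enough counts to test, 1 passed (0.236% of all tested genes did): PEG3, higher with SGC-CLK-1 by 1.5 on the log2 scale (SE 0.27, edgeR adjusted p = 0.035). Of the 10, 6 had a lower and 4 a higher value, with a median of -0.15, and 3 were lower and 3 higher at an unadjusted p under 0.05 (6.97% and 6.89% of all genes). Of 11 markers of plasma cells, the lineage of the myeloma line JJN3 of the same series, 4 were counted, led by CD38, and of 4 leukocyte markers 2 were counted, led by PTPRC. Their sums overlapped between groups, at 73.3 to 104.7 CPM for the plasma cell markers and 6.83 to 39.5 CPM for the leukocyte markers.

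Complex I (NADH dehydrogenase) and complex II (succinate dehydrogenase) pass electrons to ubiquinone, complex III (cytochrome bc1) passes them to cytochrome c, complex IV (cytochrome c oxidase) passes them to oxygen, and complex V (ATP synthase) makes ATP from the proton gradient so built. Mitochondrial DNA is transcribed from both strands as long precursors that are cut at the tRNAs, so its mRNAs arise together and their steady levels are set largely by processing and decay, whereas each nuclear subunit gene has its own promoter, introns and splicing. The nuclear subunits are made on cytosolic ribosomes and imported.

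Mitochondrially encoded mRNAs took a smaller part of the counts in every SGC-CLK-1 library than in any DMSO library, and the nuclear genes of the same complexes did not separate the groups. The 13 mitochondrial genes held 0.723, 0.534 and 0.517% of all counts in the SGC-CLK-1 libraries and 0.883, 0.757 and 0.858% in the DMSO libraries. The 46 nuclear genes held 0.615, 0.557 and 0.559% with SGC-CLK-1 and 0.579, 0.476 and 0.617% with DMSO. For each nuclear OXPHOS count there were 1.18, 0.959 and 0.926 mitochondrial counts in the SGC-CLK-1 libraries, against 1.53, 1.59 and 1.39 in the DMSO libraries. With counts on the nuclear copies of mitochondrial genes added, described below, the shares were 0.888, 0.623 and 0.581% against 1.01, 0.875 and 1.0%, and the groups overlapped, since SGC-CLK-1 replicate 1 then lay above DMSO replicate 2. SGC-CLK-1 replicate 1, the deepest library, was the treated library closest to the controls by the mitochondrial share and by its ratio to the nuclear genes. Summed after TMM scaling (edgeR's correction for library composition), the mitochondrial genes stood at 6737 ± 1360 CPM with SGC-CLK-1 and 9991 ± 863 CPM with DMSO (SD, n = 3 each), a log2 ratio of the means of -0.57. The same sums for the nuclear genes were 6566 ± 429 and 6691 ± 998 CPM, a log2 ratio of -0.03. Both are levels relative to the rest of a library, and in bulk RNA fewer cells of one kind cannot be told apart from less RNA per cell. Another library property also separated the groups: counts on transcripts without a gene in GENCODE 44 made up 6.58 to 6.72% of SGC-CLK-1 libraries and 7.25 to 7.50% of DMSO libraries. The median annotated length of the counted transcripts was 2812, 2957 and 2935 bases with SGC-CLK-1 and 2690, 2855 and 2644 bases with DMSO, so the 2 libraries with the lowest mitochondrial shares had the longest medians. The part of either property in the mitochondrial difference was not tested.

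**Figure D1:**
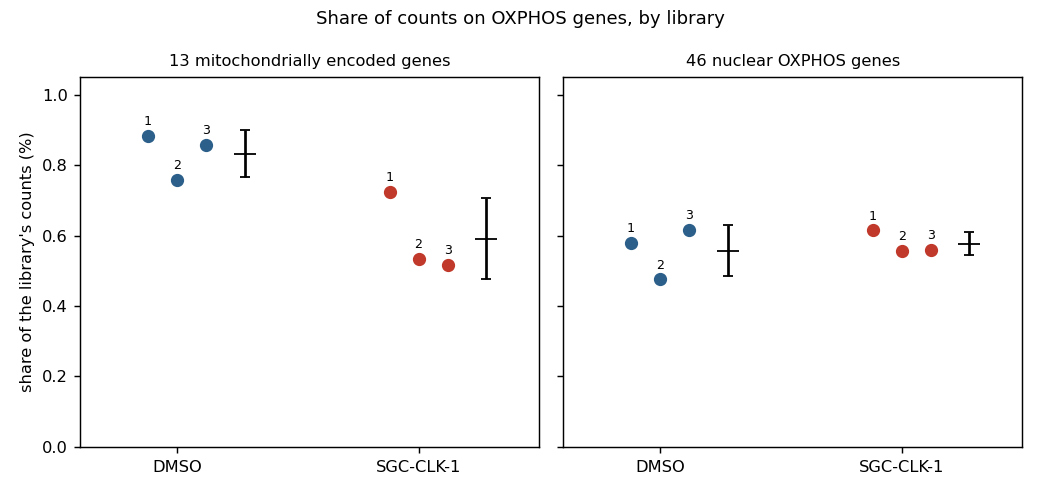
Share of all counts of each library (percent) on the 13 mitochondrially encoded genes (left) and the 46 nuclear OXPHOS genes (right). Each point is 1 library with its replicate number, and the bar beside each group is the mean with its SD (n = 3); the mitochondrial shares of the SGC-CLK-1 libraries, 0.517 to 0.723%, lie below those of the DMSO libraries, 0.757 to 0.883%, while the nuclear shares overlap.

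No gene of the set passed an adjusted p of 0.05 in the comparison of gene sums. edgeR's quasi-likelihood test covered 6344 genes, among them all 13 mitochondrial and 40 of the 46 nuclear genes, and called 15 genes in all, 0.236% of those tested. At an unadjusted p under 0.05, 11 of the 53 tested OXPHOS genes were lower with SGC-CLK-1 and 0 were higher, where 6.97% of all tested genes were lower and 6.89% were higher. The 11 were unevenly divided, with 7 of the 13 mitochondrial genes and 4 of the 40 nuclear genes. These groups also differed in abundance, with a median of 533 CPM for the mitochondrial, 125 CPM for the nuclear and 74.9 CPM for all tested genes. The part of abundance in the uneven division was not tested. When a library was left out, 5 to 9 mitochondrial genes were lower at an unadjusted p under 0.05. The nuclear count was 2 without DMSO replicate 1 and 7 without DMSO replicate 2. With 10 counts in every library 2 nuclear genes were lower and 2 higher, and with no filter 4 were lower and 3 higher. DESeq2 on the same sums called 2 of the 53, MT-ND4 and MT-CO1, where it called 1.69% of all genes. The libraries of the groups did not overlap, with SGC-CLK-1 the lower, for 6 mitochondrial and 3 nuclear genes, 9 of 53, where 9.71% of all genes did so. The median log2 fold change was -0.58 over the 13 mitochondrial genes, 0.01 over the 40 nuclear genes and -0.001 over all 6344. The nuclear median was -0.17 without DMSO replicate 2 and 0.19 without DMSO replicate 3. The mitochondrial genes were lower for 11 of 13 and the nuclear genes for 19 of 40, against 3179 of all 6344. Only the genes that passed edgeR's filter on low counts enter these figures. The 6 left out, NDUFA1, NDUFB10, NDUFS3, UQCRFS1, COX5A and COX8A, had between 0 and 20 counts in any library.

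**Figure D2:**
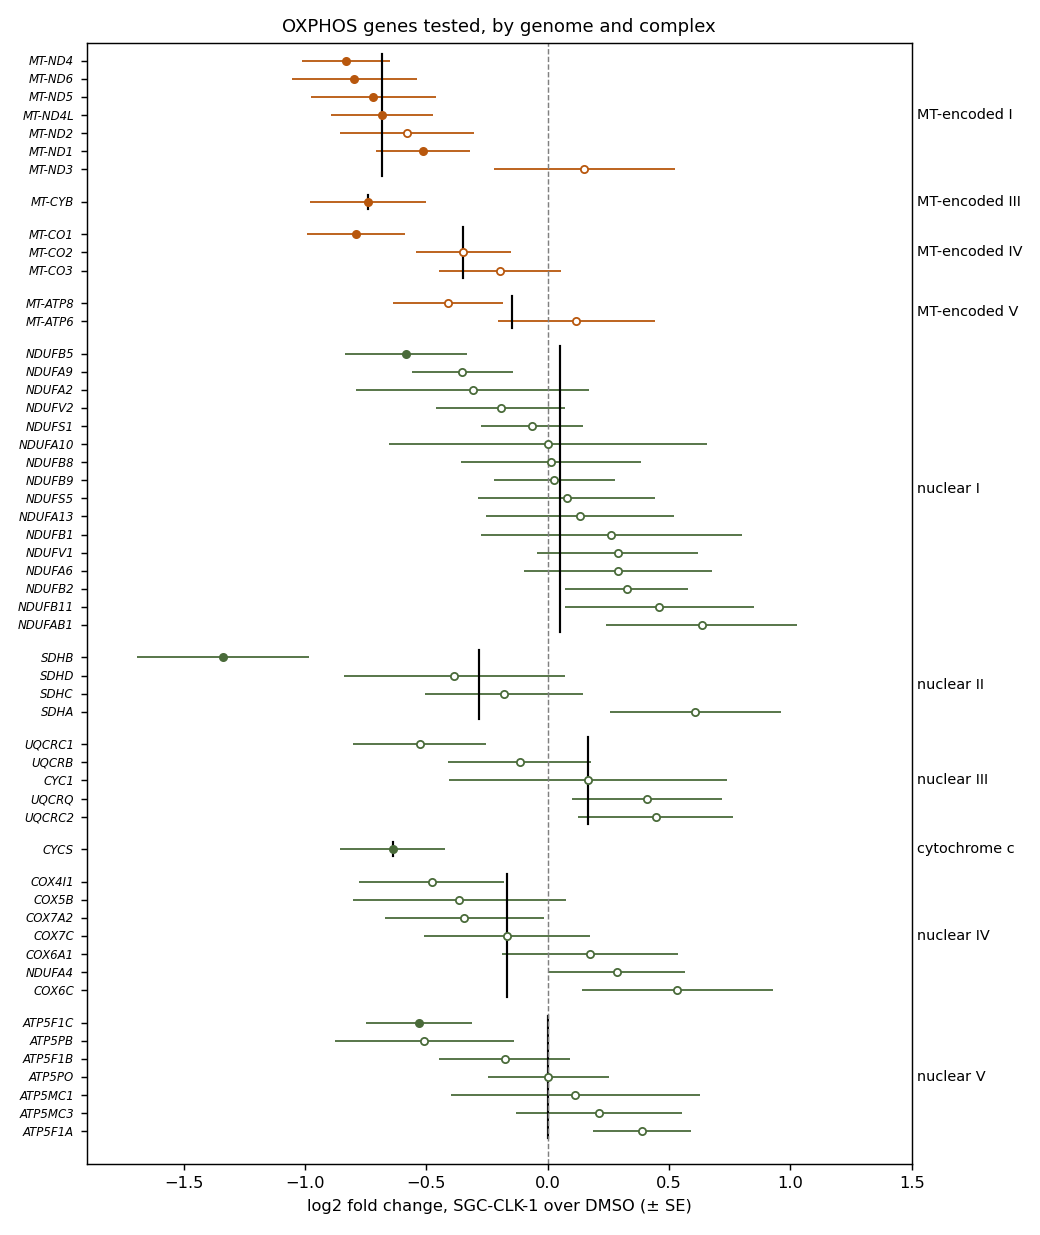
Fold change (log2, SGC-CLK-1 over DMSO, ± SE from edgeR, n = 3 each) of the 53 tested OXPHOS genes, by genome and complex; filled points have an unadjusted p under 0.05 and black lines are group medians. The mitochondrial genes lie left of 0 except MT-ND3 and MT-ATP6, and the nuclear genes scatter on both sides of it.

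Complex I holds 7 of the mitochondrial gene products, all in its proton-pumping membrane arm, and 5 of these 7 genes were lower at an unadjusted p under 0.05, where 6.97% of all genes were. MT-ND4 (chrM:10760-12137, GRCh38, a single exon) was the most counted mitochondrial gene, at 1497, 1181 and 1220 CPM in the SGC-CLK-1 libraries and 2596, 2068 and 2279 CPM in the DMSO libraries. Every treated library lay well below every control. Its log2 fold change was -0.83 (SE 0.18, edgeR adjusted p = 0.054). MT-ND4L, which lies directly before MT-ND4 and shares its mRNA, stood at 612, 478 and 525 CPM against 1064, 865 and 666 CPM. Its groups did not overlap either, although with the scaling of the transcript fit SGC-CLK-1 replicate 1 (774 CPM) lay above DMSO replicate 3 (770.1 CPM), and the log2 fold change was -0.68 (SE 0.21, edgeR adjusted p = 0.15). MT-ND6, the one mRNA made from the light-strand transcript, was at 243, 144 and 137 CPM with SGC-CLK-1 and 297, 273 and 360 CPM with DMSO, a log2 fold change of -0.80 (SE 0.26, edgeR adjusted p = 0.17). Both strands of mitochondrial DNA were thus represented among the lower genes. MT-ND5 had a log2 fold change of -0.72 and MT-ND1 of -0.51 (unadjusted p from edgeR 0.014 and 0.018). For MT-ND1 the groups did not overlap, and for MT-ND5 SGC-CLK-1 replicate 1 (363 CPM) lay above DMSO replicate 2 (350.4 CPM). MT-ND2 had a log2 fold change of -0.58 with overlapping groups (edgeR adjusted p = 0.38). MT-ND3, the sparsest with 15 to 31 counts a library, had a log2 fold change of 0.15 (SE 0.37), and it turned to -0.01 without DMSO replicate 2.

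**Figure D3:**
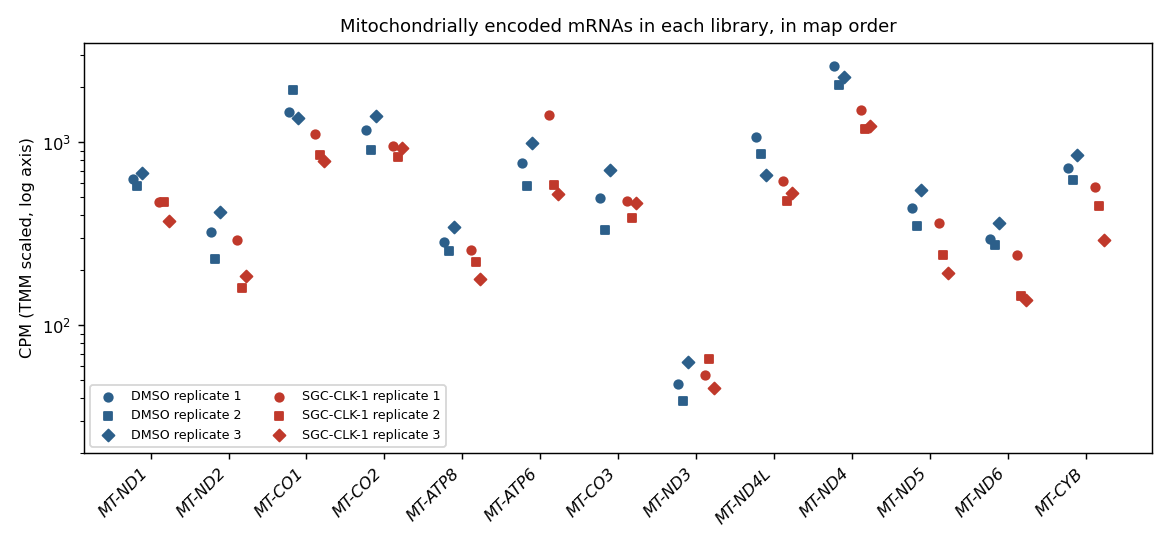
Level of each mitochondrially encoded mRNA (CPM after TMM scaling, log axis) in the 3 DMSO (blue) and 3 SGC-CLK-1 (red) libraries, in the order of the genes on mitochondrial DNA. MT-ND1, MT-ND4L, MT-ND4, MT-CO1, MT-CYB and MT-ND6 show no overlap between the groups. The other genes overlap, and SGC-CLK-1 replicate 1 stands apart for MT-ATP6.

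MT-CYB encodes cytochrome b, the mitochondrially made subunit of complex III. It stood at 567, 447 and 291 CPM with SGC-CLK-1 and at 725, 623 and 850 CPM with DMSO. The groups did not overlap, and the log2 fold change was -0.74 (SE 0.24, edgeR adjusted p = 0.17). MT-CO1, the catalytic core of complex IV (chrM:5904-7445), was at 1106, 847 and 786 CPM against 1456, 1923 and 1363 CPM. All 3 treated libraries were below the lowest control, with a log2 fold change of -0.79 (SE 0.20, edgeR adjusted p = 0.097). Of the other core subunits of complex IV, MT-CO2, which takes electrons from cytochrome c, had a log2 fold change of -0.35 (SE 0.20) and MT-CO3 of -0.19 (SE 0.25), both with overlapping groups, and their difference from MT-CO1 was not tested. Without DMSO replicate 3 the value for MT-CO3 was 0.10.

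The direction of MT-ATP6, of complex V, depended on which libraries were used. MT-ATP8, of the same complex, was lower under all 16 alternative settings (-0.56 to -0.30 on the log2 scale). MT-ATP6, the channel subunit of ATP synthase, stood at 1416, 584 and 519 CPM in the SGC-CLK-1 libraries and at 773, 580 and 996 CPM in the DMSO libraries. SGC-CLK-1 replicate 1 was far above all other libraries, while replicates 2 and 3 lay close to or below the lowest control. The log2 fold change was 0.12 (SE 0.32, edgeR adjusted p = 0.91) over all libraries and -0.51 (edgeR adjusted p = 0.40) without that library. The value was also below 0 without DMSO replicate 2, where all 13 mitochondrial genes were lower. MT-ATP8, a small subunit of the same membrane part, was at 257, 222 and 179 CPM against 286, 255 and 343 CPM, a log2 fold change of -0.41 (SE 0.23). In MT-ATP8 the library with the high MT-ATP6 value was only just above the lowest control. The ratio of the summed means was -0.03 on the log2 scale for the mitochondrial genes of complex V, against -0.73 for complex I, -0.75 for complex III and -0.52 for complex IV. Without SGC-CLK-1 replicate 1 these ratios were -0.52, -0.87, -0.99 and -0.61 in the same order, and the differences between complexes were not tested.

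MT-ATP8 and MT-ATP6 are read from a single mRNA in overlapping frames, and so are MT-ND4L and MT-ND4. These junctions are shown because a read that covers one can be placed on either annotated transcript. The sequences are from the GENCODE 44 transcripts (GRCh38, plus strand), and capitals mark the bases that belong to both genes: 46 bases, chrM:8527-8572, in the first and 7 bases, chrM:10760-10766, in the second.
MT-ATP8 to MT-ATP6, chrM:8500-8599: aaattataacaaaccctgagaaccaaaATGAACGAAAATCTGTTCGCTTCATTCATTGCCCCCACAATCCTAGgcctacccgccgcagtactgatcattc
MT-ND4L to MT-ND4, chrM:10720-10806: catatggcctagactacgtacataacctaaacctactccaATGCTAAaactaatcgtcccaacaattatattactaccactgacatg
The order of these levels depended on the scale. In DMSO libraries MT-ND4 stood at 2314 ± 266 CPM and MT-ND4L, on the same mRNA, at 865 ± 199 CPM (SD, n = 3), but per kilobase of annotated transcript MT-ND4L stood higher, at 2913 ± 670 against 1680 ± 193 CPM/kb. Molecules counted by their identifiers need not scale with length, so no order of the 13 genes is drawn from the values per kilobase. In DMSO libraries MT-ND3 was lowest on both scales, at 144 ± 36.0 CPM/kb, but with SGC-CLK-1 MT-ND5 lay below it per kilobase.

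The nuclear genome holds copies of mitochondrial DNA, and several annotated copies were counted in the same libraries, so the mitochondrial values were set beside them. For each of the 13 genes the most-counted copy was aligned to its mitochondrial transcript, and identity ran from 89.6% (MT-ND3 and MTND3P25) to 98.6% (MT-CO1 and MTCO1P12). MT-ATP6 and its copy MTATP6P1 on chromosome 1 (chr1:633696-634376) are both 681 bases long and differ at 10 positions, with 141 bases the longest run in common. The 120 bases with the most differences show how alike they are, with the 4 differing positions in capitals (GRCh38, plus strand).
MT-ATP6, chrM:8628-8747: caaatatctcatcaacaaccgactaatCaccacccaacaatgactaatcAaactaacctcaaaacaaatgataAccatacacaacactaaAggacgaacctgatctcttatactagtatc
MTATP6P1, chr1:633797-633916: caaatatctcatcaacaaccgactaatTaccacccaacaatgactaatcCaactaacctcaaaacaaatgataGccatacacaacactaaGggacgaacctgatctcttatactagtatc
MTATP6P1 had 552, 58 and 56 counts in the SGC-CLK-1 libraries and 75, 82 and 111 in the DMSO libraries. The library with the high MT-ATP6 value, SGC-CLK-1 replicate 1, was thus also the one with the high copy. For each 100 MT-ATP6 counts there were 67.2 copy counts in that library and 27.2 to 37.1 in the other 5. MTCO1P12 (chr1:631074-632616), the copy of MT-CO1, had 153, 68 and 53 counts with SGC-CLK-1 and 148, 197 and 141 with DMSO. It was lower in every SGC-CLK-1 library once scaled, as MT-CO1 was, with a log2 fold change of -1.05 (SE 0.22, edgeR adjusted p = 0.054). MTCO1P12 passed an adjusted p of 0.05 in 4 alternative settings and not in 10 others. MTND4LP30, a copy of MT-ND4L, had a log2 fold change of -1.18 (SE 0.34, edgeR adjusted p = 0.13). Of 9 nuclear copies with enough counts to test, 8 were lower with SGC-CLK-1 and 4 of them had an unadjusted p under 0.05 (6.97% of all genes did). DESeq2 called 1 of the 9, where it called 1.69% of all genes. MTND4LP30 and MTATP6P1 each passed an adjusted p of 0.05 in 1 alternative setting. The alignment settings of the study let a molecule count on more than one similar transcript, so reads of a mitochondrial gene and of its copy cannot be told apart from these counts. With the counts of all copies added to their mitochondrial genes, the median over the 13 genes was -0.64 on the log2 scale, while the summed shares of counts, given above, overlapped between the groups.

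**Figure D4:**
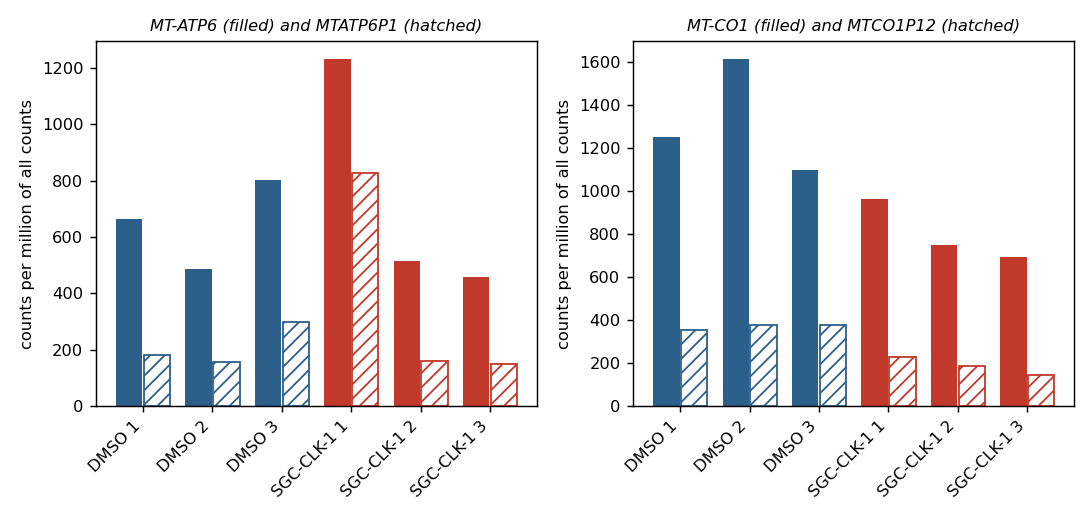
Level (CPM before TMM scaling) in each library of MT-ATP6 and MT-CO1 (filled bars) and their most-counted nuclear copies MTATP6P1 and MTCO1P12 (hatched bars), DMSO in blue and SGC-CLK-1 in red. MT-ATP6 and its copy are both highest in SGC-CLK-1 replicate 1, and MT-CO1 and its copy are lower in all 3 SGC-CLK-1 libraries than in the DMSO libraries.

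Of the 19 nuclear genes of complex I, 16 were tested, 10 of them higher and 6 lower, and their median log2 fold change was 0.05. NDUFA9, an accessory subunit of the matrix arm and the most abundant of them, was at 424, 316 and 307 CPM with SGC-CLK-1 and 456.5, 403 and 486 CPM with DMSO, a log2 fold change of -0.35 (SE 0.21) with overlapping groups. NDUFB5, an accessory subunit of the membrane arm, was the lowest of the complex and the one with an unadjusted p under 0.05. It stood at 133, 109 and 179 CPM against 218, 187 and 227 CPM. The groups did not overlap, and the log2 fold change was -0.58 (SE 0.25, edgeR adjusted p = 0.32). At the other end, NDUFAB1, the mitochondrial acyl carrier protein, was at 62.0, 56.2 and 60.7 CPM against 39.2, 25.0 and 53.3 CPM. Every treated library was above every control, but at 11 to 36 counts a library the log2 fold change of 0.64 had an SE of 0.39 (edgeR adjusted p = 0.51). Among core subunits that carry electrons, the log2 fold change was -0.07 for NDUFS1, 0.29 for NDUFV1 and -0.19 for NDUFV2. Abundance is given here by gene sum, in which a gene with many similar isoforms can count a molecule more than once. By the most abundant transcript alone, NDUFA9 led the nuclear genes of the set at 345.5 CPM, ahead of ATP5F1A at 272 CPM, and UQCRC1 and NDUFA4 led complexes III and IV.

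Complex II, the one complex with no mitochondrially encoded subunit, held the largest log2 fold change among the 53 tested genes, although none of its genes passed an adjusted p of 0.05. SDHB, the iron-sulphur subunit (chr1:17018722-17054032, 8 exons), had 35, 9 and 13 counts in the SGC-CLK-1 libraries and 34, 44 and 43 in the DMSO libraries, which is 60.3, 28.1 and 39.5 CPM against 95.2, 100.1 and 143 CPM. The groups did not overlap, although replicate 1 of the treated group was higher than the other two. The log2 fold change was -1.34 (SE 0.35, edgeR adjusted p = 0.10). SDHA, the flavoprotein subunit to which SDHB binds, was at 171, 166 and 115 CPM against 146, 105 and 43.3 CPM, with overlapping groups and a log2 fold change of 0.61 (SE 0.35, edgeR adjusted p = 0.48). The membrane anchors had log2 fold changes of -0.18 (SDHC) and -0.39 (SDHD), and over the 4 genes the median was -0.28.

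In complex III, 5 of 6 nuclear genes were tested and the median log2 fold change was 0.17, with 3 higher and 2 lower. Its 2 core proteins had the lowest and the highest value. UQCRC1 had a log2 fold change of -0.53 (SE 0.27, edgeR adjusted p = 0.42), and SGC-CLK-1 replicate 1 at 138 CPM lay just above DMSO replicate 1 at 137 CPM. UQCRC2 had a log2 fold change of 0.44 (SE 0.32, edgeR adjusted p = 0.59), with 1 treated library below all controls. UQCRB, the most abundant by gene sum, stood at -0.12 (SE 0.30), and without DMSO replicate 3, where it was highest, the value was 0.27. CYCS encodes cytochrome c, the soluble carrier between complexes III and IV. It was at 208, 184 and 188 CPM with SGC-CLK-1 and 311, 257 and 343 CPM with DMSO. The treated libraries were close to each other and all below the controls, with a log2 fold change of -0.64 (SE 0.22, edgeR adjusted p = 0.19).

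Of 9 nuclear genes of complex IV, 7 were tested, with a median log2 fold change of -0.17, 4 lower and 3 higher, and none had an unadjusted p under 0.05. Of the nuclear parts, this one had the widest spread among controls, since its summed level was 1003, 642 and 1556 CPM in the DMSO libraries and 1040, 1037 and 1020 CPM in the SGC-CLK-1 libraries. COX6C, a small accessory subunit and the most abundant by gene sum, showed this, at 286, 237 and 276 CPM with SGC-CLK-1 and 185, 61.4 and 320 CPM with DMSO. Its log2 fold change of 0.53 had an SE of 0.39. COX4I1, the largest nuclear subunit of the complex, had a log2 fold change of -0.48 (SE 0.30), with DMSO replicate 3 (356 CPM) far above the other libraries (150 to 184 CPM).

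All 7 nuclear genes of complex V were tested, with a median log2 fold change of 0.003, 4 higher and 3 lower. ATP5F1A, the alpha subunit of the catalytic head and the most abundant nuclear gene of the set by gene sum, was at 1592, 1266 and 1178 CPM against 863, 1276 and 943 CPM. DMSO replicate 2 reached the treated libraries, and the log2 fold change was 0.39 (SE 0.20, edgeR adjusted p = 0.42). ATP5F1C, the gamma subunit that turns inside that head, went the other way, at 289, 256 and 361 CPM against 493, 353 and 466 CPM, a log2 fold change of -0.53 (SE 0.22, edgeR adjusted p = 0.30). The groups met at one point, where SGC-CLK-1 replicate 3 was just above DMSO replicate 2. The beta subunit gene ATP5F1B was at -0.18 (SE 0.27). Without SGC-CLK-1 replicate 1 the median of the complex was -0.51.

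The deposited unit is the transcript, and at that level 3 OXPHOS transcripts passed the test, all lower with SGC-CLK-1. Of the 342 transcripts 77 had enough counts, and 3 of 77 were called, a share close to the 3.95% of all 7840 tested transcripts. At an unadjusted p under 0.05 from edgeR, 8 of 13 mitochondrial transcripts were lower and 0 higher. Of 64 nuclear transcripts 3 were lower and 8 higher, with a median log2 fold change of 0.17. The 8 higher were all isoforms of ATP5F1A, COX6C or NDUFB2, and similar isoforms can count the same molecule. The 3 lower were of CYCS, NDUFB5 and SDHB. By gene sum 0 nuclear genes were higher at an unadjusted p under 0.05. Of all 7840, 714 were lower and 700 higher. The single MT-ND4 transcript, ENST00000361381, fell by 0.75 on the log2 scale (SE 0.19, edgeR adjusted p = 0.025), and that of MT-CO1, ENST00000361624, fell by 0.71 (SE 0.20, edgeR adjusted p = 0.040). These are the same counts as in the gene sums, tested beside other features. The main coding transcript of SDHB, ENST00000375499, fell by 1.14 (SE 0.31, edgeR adjusted p = 0.031), from 26, 33 and 27 counts in the DMSO libraries to 23, 7 and 12 in the SGC-CLK-1 libraries. Once scaled, its groups did not overlap, at 50.1, 27.8 and 46.7 CPM against 89.6, 91.5 and 104 CPM. Leaving out SGC-CLK-1 replicate 2 or 3 or DMSO replicate 1 left 0 of the 3 called.

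Only nuclear genes are spliced, and the classes of their transcripts were compared because the treatment targets splicing kinases. Transcripts annotated as targets of nonsense-mediated decay, which destroys mRNAs with an early stop codon, took 15.4, 14.7 and 15.8% of the counts of the 46 nuclear genes in the SGC-CLK-1 libraries and 12.1, 14.1 and 14.0% in the DMSO libraries. The treated libraries were all higher, with means of 15.3 ± 0.58 and 13.4 ± 1.1% (SD, n = 3). Without ATP5F1A, the most counted of these genes by gene sum, the shares were 10.5, 10.4 and 11.5% against 9.42, 8.09 and 11.4%, with means of 10.8 ± 0.60 and 9.64 ± 1.7%, and the groups overlapped. Within ATP5F1A alone the class took 32.1, 31.6 and 34.5% of the counts with SGC-CLK-1 and 30.5, 34.6 and 32.2% with DMSO, also with overlap. In all other genes the same class took 7.64 to 7.66% with SGC-CLK-1 and 7.52 to 7.60% with DMSO, without overlap. Whether the nuclear OXPHOS genes differ from other genes in this was not tested, and 3 libraries against 3 cannot give an exact permutation p below 0.1. Retained-intron transcripts took 3.93 to 5.20% of the nuclear OXPHOS counts with SGC-CLK-1 and 4.0 to 4.70% with DMSO, and protein-coding transcripts took a mean of 76.1% of them in both groups.

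Further genes of the pathway were read from lists of other subunits, assembly factors and factors for the expression of mitochondrial DNA. None of their tested genes passed an adjusted p of 0.05 in the main edgeR fit or by DESeq2. NDUFAF6 and SLIRP, given below, each passed it in 1 alternative setting. Among 33 other subunits, 2 were lower and 2 higher at an unadjusted p under 0.05, close to the 6.97% and 6.89% of all genes, with a median log2 fold change of -0.08. NDUFS8, an iron-sulphur subunit of complex I, was at -1.01 and NDUFB3 at -0.76, while UQCR11 of complex III was at 1.06 and ATP5MJ of complex V at 0.76. The other complex I subunits were lower for 14 of 17, against 3179 of all 6344 tested genes, with a median of -0.25. Among 33 assembly factors 2 were lower and 3 higher, which is also near those shares, with a median of -0.07. TIMMDC1 (-0.74) and UQCC3 (-0.80), which assemble complexes I and III, were on the lower side, and NDUFAF6 (1.02) and COX18 (1.33), which act on complexes I and IV, on the higher.

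Among 30 genes for the expression of mitochondrial DNA, 2 were lower and 5 higher at an unadjusted p under 0.05, where 6.97% of all genes were lower and 6.89% higher, with a median log2 fold change of -0.04. SLIRP, which with its partner LRPPRC stabilises mitochondrial mRNAs, had 95, 45 and 32 counts with SGC-CLK-1 and 9, 26 and 27 with DMSO. Scaled, all treated libraries were above the controls, and the log2 fold change was 1.23 (SE 0.38, edgeR adjusted p = 0.15). Of the factors that work on mitochondrial ribosomes, the elongation factor GFM1 was at 1.14, the elongation factor TUFM at -0.72 and the initiation factor MTIF3 at -1.23. For RNA processing and stability 4 of 14 genes were higher and 0 lower at that level, and for replication and transcription 0 of 9 reached it. The ribosomal RNAs MT-RNR1 and MT-RNR2 had 0 counts in all 6 libraries, so no value is given for them. SDHAP4, the one tested pseudogene of a nuclear OXPHOS gene, had a log2 fold change of -0.04 (SE 0.29), which was 0.03 with scaling by library size only.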

How the data were processed

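The authors deposited, for each library, raw counts per Ensembl transcript of nanopore cDNA reads. By the study's methods, cDNA was primed with oligo(dT), reads were aligned to hg38 transcripts with minimap2, keeping secondary alignments, and molecules were counted by their unique molecular identifiers; which of its correction methods made these values is not given in the sources used here. The submitters' processing notes name minimap2 2.22, featureCounts 2.0.1, UMI-tools and DESeq2. Counts were joined by identifier without version to GENCODE 44 and summed to genes; 4 per-sample columns of another table matched no sample and were not used. edgeR 4.0.16 (R 4.3.3; filterByExpr, minimum count 10; TMM; quasi-likelihood test; Benjamini-Hochberg over all features) compared 3 SGC-CLK-1 with 3 DMSO libraries, and DESeq2 1.42.0 was an alternative, as were other scalings, filters, transcript sums and leaving out each library. The fits were tested on simulated counts. These held larger fold changes than any tested OXPHOS gene showed, and no molecule counted on several transcripts. The members and gene lists were chosen with earlier results of these data known. Named were the 13 mitochondrial genes, nuclear members with an unadjusted p under 0.05, per complex the most abundant, highest and lowest, CYCS, called transcripts, and per other list the 2 smallest p-values in each direction; NDUFS1, NDUFV1, NDUFV2, SDHC, SDHD, ATP5F1B, NRF1 and PPRC1 were added after their values were seen. NDUFA4 was counted with complex IV. The share without ATP5F1A was added after the data were seen, as was adding nuclear copies.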

Additional observations from a re-analysis of the deposited data

How the results depend on the processing

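The median of the mitochondrial genes stayed between -0.80 and -0.46 on the log2 scale under all 16 alternatives run for it, that of the nuclear genes between -0.17 and 0.19 with either sign under 15, and the log2 ratio of the mitochondrial share of counts between -0.66 and -0.41 under 9 (-0.49 over all libraries), all extremes coming from leaving out a library. Calls depended on the setting. Of the OXPHOS genes, edgeR called 1 when every library needed 10 counts, 3 with no filter, 1 with the replicate block and 3 with the most abundant transcript alone, and DESeq2 called 2, with MT-ND4 in each of the 5. All genes called, 15 over all libraries, were 28 with library size only, 64 with 10 counts in every library, 169 with no filter, 107 with DESeq2, 36 with the replicate block, 0 with protein-coding transcripts (where the OXPHOS genes also gave 0), 148 with the most abundant transcript, and 1 to 21 when a library was left out. OXPHOS transcripts called, 3 over all libraries, were 1 with 10 counts in every library (MT-ND4), 1 with no filter (one of ATP5F1C, none of the 3), 2 with DESeq2 (not SDHB), 2 with library size only (not MT-CO1), 6 with the replicate block, and 0 to 5 when a library was left out. The labels do not say whether same-numbered libraries pair, and correlations this weak do not settle it. Their deviations correlated at 0.064, 0.024 and 0.031. Replicates 1 and 2 of SGC-CLK-1 correlated best with the DMSO library of the same number, and replicate 3 with DMSO replicate 2 (0.036). Medians of the nuclear genes that moved were complex II (0.26 with 10 counts in every library), complex III (-0.11 to 0.42 when a library was left out) and complex V (-0.51 to 0.18). Directions turned for MT-ATP6 (-0.00099 with the replicate block, -0.51 to 0.35 leaving out a library), MT-ND3 (-0.013 to 0.34), MT-CO3 (-0.44 to 0.10), UQCRB (-0.36 to 0.27), GABPB1 (-0.27 to 1.43), MTATP6P1 (-0.54 to 1.18) and SDHAP4 (0.03 with library size only, 0.0017 with 10 counts in every library, -0.19 to 0.10 leaving out a library). The cause was not tested for any of these. Depth limits the nuclear genes most: 6 of 46 were not tested, and counts of 9 to 44, as for SDHB, carry wide error.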

Other observations

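The mitochondrial ribosome, which translates the 13 mitochondrial mRNAs and is built from nuclear-encoded proteins, had 49 of 78 genes tested. Of the 49, 36 had a negative log2 fold change, as had 3179 of all 6344 tested genes. The median was -0.17 against -0.001 over all genes. At an unadjusted p under 0.05, 4 were lower, all in the large subunit, and 0 higher. The 4 are 8.16% of the 49, close to the 6.97% of all genes that were lower. In the main edgeR fit and by DESeq2, 0 of 49 passed an adjusted p of 0.05, and MRPL48 passed it in 1 alternative setting. MRPL48 had 43, 21 and 15 counts in the SGC-CLK-1 libraries and 28, 80 and 56 in the DMSO libraries, a log2 fold change of -1.25 (SE 0.35, edgeR adjusted p = 0.12). MRPL1 had 14, 10 and 8 counts against 22, 23 and 28, a log2 fold change of -1.37 (SE 0.41, edgeR adjusted p = 0.14). In both, each scaled SGC-CLK-1 library lay below each DMSO library, as in 8 of the 49 and in 9.71% of all tested genes. The highest values among those with the smallest p were 0.72 for MRPS14 and 0.59 for MRPS28.

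Of 6 tested nuclear regulators of mitochondrial genes, GABPA, the DNA-binding part of an ETS factor that activates many OXPHOS genes, had 9, 3 and 9 counts with SGC-CLK-1 and 20, 14 and 12 with DMSO. Its log2 fold change was -1.28 (SE 0.53, edgeR adjusted p = 0.29), at counts low enough that a few molecules move it. The other values were -0.23 for YY1, 0.47 for PPARGC1B, 0.16 for NRF1, 0.13 for PPRC1, both named to complete the 6, and 0.22 for GABPB1, whose sign turned when single libraries were left out. None of these 5 had an unadjusted p under 0.05.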
